A study of Mus musculus with 2 samples.

Results

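Class II high cells were cells in a culture of adherent mouse marrow. They carried many transcripts of the MHC class II genes H2-Aa, H2-Ab1 and H2-Eb1 and of the invariant chain Cd74. They were chosen by the data themselves. A barcode was a member when those 4 genes together reached 30 per 10000 of its unique molecular identifiers (UMIs, the tags that count single mRNA molecules). It also had to hold at most 1 UMI of the B-cell receptor chains Cd79a and Cd79b, and a sum of the stromal matrix genes Col1a1, Col1a2 and Sparc below 60 per 10000. Before that, barcodes were kept when they held 500 or more genes, 1000 or more UMIs and no more than 15% mitochondrial UMIs. This gave 65 members among 13677 kept barcodes. They were 39 of 8171 in the WT library, or 0.477% (exact 95% binomial interval 0.340 to 0.652), and 26 of 5506 in the cKO library, or 0.472% (0.309 to 0.691).

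The WT library came from Slc31a1flox/flox mice without Cre, and the cKO library from littermates of genotype Prrx1-Cre+/-; Slc31a1flox/flox, all on a C57BL/6J background. Both groups thus carried the floxed alleles of Slc31a1, the plasma membrane copper importer, and Prrx1-Cre is aimed at limb mesenchyme rather than at blood cells. Marrow flushed out of femurs and tibias was plated, cells that did not attach were washed away, no inducing agent was added, and 10x Genomics Chromium 3' v3 libraries were made from the adherent cells. The labels call the cells of both libraries mesenchymal stem cells and place them in batch 1. They do not give the age or sex of the mice or how many were pooled. There was 1 library per genotype, so no difference between genotypes has a replicate check, and all intervals below cover counting error only. More cells of a kind and more RNA per cell cannot be told apart in UMIs summed over cells.

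MHC class II molecules are pairs of an alpha and a beta chain that show peptides from swallowed or recycled protein to CD4+ T cells. In mice of the b haplotype the surface molecule is built from H2-Aa and H2-Ab1, while H2-Eb1 is transcribed without a working alpha partner. Cd74 holds the new pair and blocks its groove on the way to the endosome. There proteases such as cathepsin S (Ctss) trim Cd74, and H2-DM (H2-DMa with H2-DMb1) helps exchange the last fragment for a peptide. The co-activator Ciita switches these genes on together through promoter elements bound by RFX and NF-Y. Dendritic cells, B cells and some monocytes and macrophages make these molecules in marrow.

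The promoters of 2 genes of the selection hold the letters of the Y box, the element that NF-Y is known to bind, and are shown for that. The 150 bases before the start of H2-Aa (chr17:34287824-34287973, minus strand) and of H2-Eb1 (chr17:34305717-34305866, plus strand) are given 5′ to 3′ from RefSeq, build GRCm38.p6. Capitals mark TGATTGG, a 7-base form of the Y box.
H2-Aa: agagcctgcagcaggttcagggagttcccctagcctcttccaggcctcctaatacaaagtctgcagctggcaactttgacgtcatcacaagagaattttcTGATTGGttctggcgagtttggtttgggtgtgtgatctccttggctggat
H2-Eb1: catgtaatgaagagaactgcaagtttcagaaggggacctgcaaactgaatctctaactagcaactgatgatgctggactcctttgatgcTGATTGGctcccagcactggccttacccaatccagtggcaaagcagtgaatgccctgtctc
The motif began 50 bases before the start of H2-Aa and 61 bases before that of H2-Eb1. Searched on both strands, it stood in 7 of the 9 windows matched to class II genes and in 1877 of 32851 windows of this length in the table, or 5.71%. H2-DMb1 had it 63 bases and H2-Oa 45 bases before the start. Both windows listed for H2-DMa lacked these letters, and 8 of 9 class II genes were matched to the table. A match describes letters in a window and shows no binding.

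The libraries were deep for so few members. Total counts were 152398639 UMIs over 9125 WT barcodes and 126031142 UMIs over 6140 cKO barcodes, and 11 barcode sequences occurred in both libraries, none of them among the members. Members had a median of 10849 UMIs in WT (2052 to 26177) and 10231 in cKO (1611 to 30463), with a median mitochondrial share of 3.40% and 4.12%. Summed over members this was 428599 and 277160 UMIs. A gene at 3 UMIs therefore stood at 7.0 CPM in WT members and 10.8 CPM in cKO members, CPM being the UMIs of a gene scaled to a total of 1000000 UMIs. In stromal-rich barcodes (stromal sum of 60 per 10000 or more; 4413 WT and 1750 cKO) the targeted gene Slc31a1 was at 43.0 CPM in the WT library and at 15.2 CPM in the cKO library, which is 0.354 of the WT level (0.333 to 0.376).

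The class II level varied widely among members. The sum of the 4 selection genes ran from 30.5 through a median of 57.1 to 265 per 10000 UMIs in WT cells, and from 30.4 through 47.4 to 138 in cKO cells. The range thus reached higher in WT, with 19 WT cells but 7 cKO cells at 60 or more. The limit cut through a thin tail: 15 WT and 13 cKO barcodes that met every other condition lay between 20 and 30 per 10000, and 9 of each between 30 and 40. Just inside were WT cells at 30.5, 30.6 and 32.3 and cKO cells at 30.4, 31.0 and 32.8. Just outside were WT cells at 26.9, 26.8 and 26.3 and cKO cells at 29.2, 28.6 and 28.4.

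Cd74 made up most of the class II signal. It gave 50.3% of the 3132 class II UMIs in WT members (48.5 to 52.0) and 55.8% of the 1472 in cKO members (53.3 to 58.4). H2-Aa gave 20.6% and 17.8%, H2-Ab1 15.9% and 12.6%, and H2-Eb1 13.3% and 13.7%. In the B-lineage class II high barcodes of the same libraries (22 WT and 36 cKO, with 2 or more Cd79a and Cd79b UMIs), Cd74 took a larger share, 60.9% and 69.3%. All 65 members had a Cd74 UMI, 64 had H2-Ab1, and 61 each had H2-Aa and H2-Eb1.

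**Figure D1:**
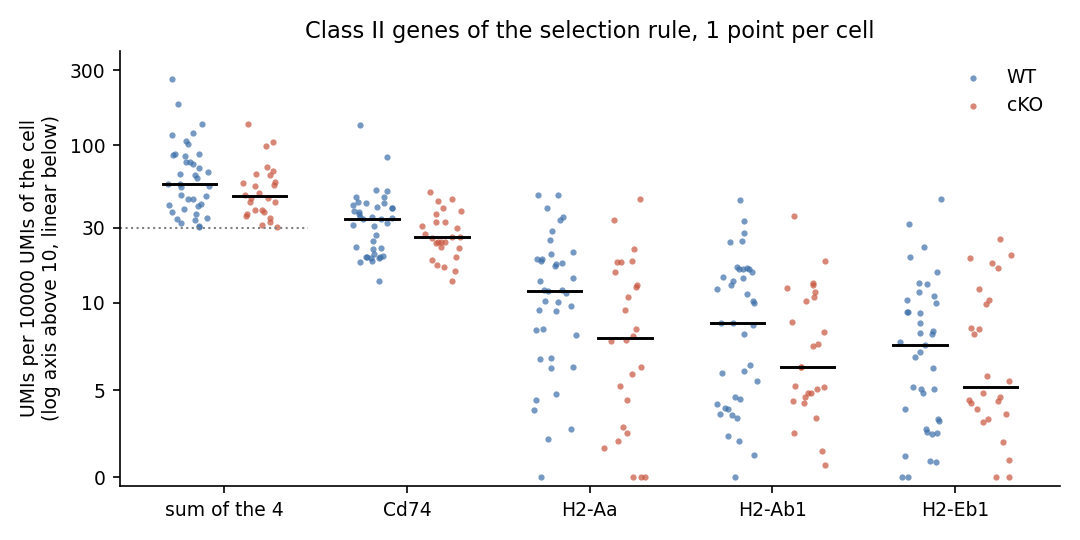
Class II transcripts in each member cell, as UMIs per 10000 UMIs of that cell (axis linear below 10 and logarithmic above). Each point is a cell, bars are medians of the 39 WT and 26 cKO cells, and the dotted line is the limit of 30 for the sum; Cd74 lies highest of the 4 genes in both libraries, with medians of 34.1 and 26.0.

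Per cell, Cd74 ran from 13.8 through a median of 34.1 to 134 per 10000 in WT and from 13.7 through 26.0 to 50.6 in cKO. H2-Aa, the alpha chain, ran from 0 through 11.9 to 48.7 in WT and from 0 through 7.96 to 45.9 in cKO. H2-Ab1, its beta partner, ran from 0 through 8.87 to 45.2 in WT and from 0.74 through 6.33 to 35.7 in cKO. H2-Eb1 had medians of 7.61 and 5.18. All 4 medians were lower in cKO, and the ranges of the 2 libraries overlapped for each gene. Because these values chose the members, they are a description and no test.

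The label given to these cells, monocytes and dendritic cells, was borne out only in part by the markers. Of the 65 members, 63 had UMIs of lysozyme (Lyz2), 61 of the M-CSF receptor Csf1r, 57 each of the fractalkine receptor Cx3cr1 and the integrin Itgam, and 56 of the macrophage marker Adgre1. The complement genes C1qa, C1qb and C1qc, made by tissue macrophages, were seen in 51, 53 and 55. Ccr2, the chemokine receptor of inflammatory monocytes, was seen in 43, of which 29 were WT and 14 cKO. Ly6c2, the other defining gene of classical monocytes, was seen in only 8 and the aspartic protease Napsa in 13, and 1 cell of each set was cKO.

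Defining dendritic cell genes were rare, while genes on the same lists that other myeloid cells also make were not. The dendritic growth factor receptor Flt3 had 9 UMIs in 3 cells, the dendritic regulator Zbtb46 was seen in 2 cells, Cd209a, Ccr7 and Siglech in 1 cell each, and Xcr1 and Clec9a in none. With each cell thinned to 2000 UMIs, 0 of 39 WT cells allows a share of cells with an Xcr1 or Clec9a UMI of up to 7.69%, and 0 of 24 cKO cells up to 12.5% (3 cells of the total). This limits cells with a UMI at that depth, not cells that make the gene. Itgax (CD11c) was seen in 19 cells, Irf8 in 45, Wdfy4 in 40, Cadm1 in 37, Tnip3 in 27, and the plasmacytoid-list genes Tcf4 and Bst2 in 55 and 45. Of the 14 genes on the cDC2 and monocyte-derived list, 3 were seen in more than 10 cells. The B-cell genes Ms4a1 and Pax5 were at 0, while Ighm was seen in 25 cells, Ebf1 and Igkc in 14 each and Cd79b in 12. The members are therefore named here by the rule, as class II high cells.

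**Figure D2:**
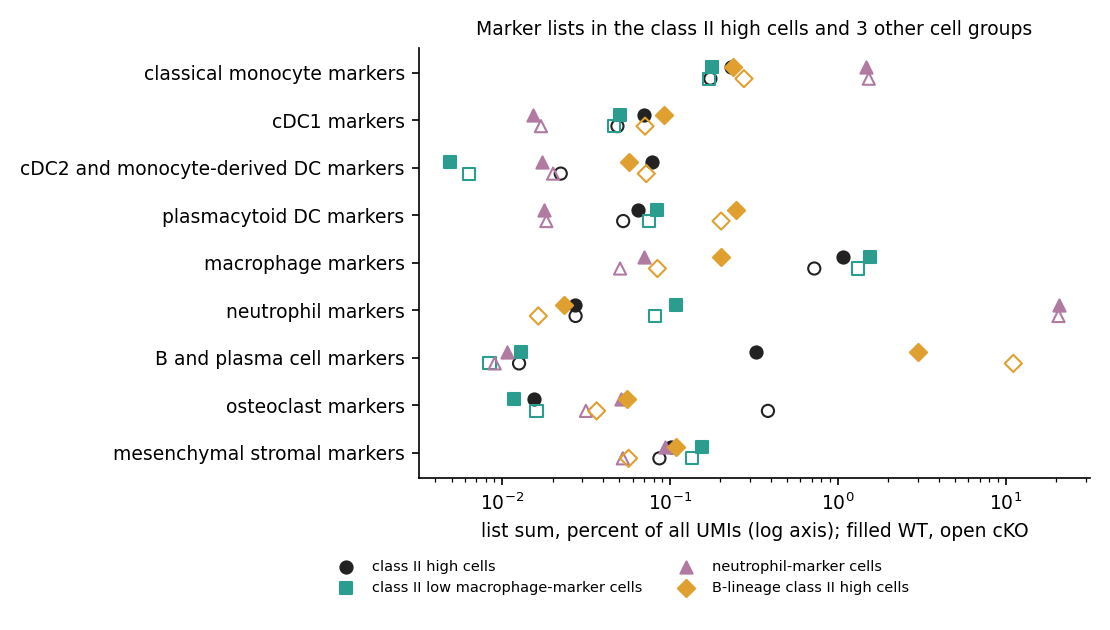
Share of all UMIs taken by 9 marker lists (percent, log axis) in 4 groups of cells; filled symbols are WT and open symbols cKO. Macrophage markers took 1.08% of member UMIs in WT and 0.725% in cKO, while markers of cDC2 and monocyte-derived dendritic cells took 0.078% and 0.022%. Without the 5 members set apart further below, the latter list took 0.0238% in WT and 0.0270% in cKO.

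Free RNA can place UMIs in cells that do not make a gene, so shares of cells with a UMI were set beside cell types that should lack it. After thinning to 2000 UMIs (2 cKO members were shallower and left out), 64.1% of WT members had a Ccr2 UMI (47.2 to 78.8) and 37.5% of cKO members (18.8 to 59.4). Unthinned, these shares were 74.4% and 53.8%. In B-lineage class II high barcodes (median depth 5046 and 3932 UMIs) the thinned shares were 4.76% and 2.78%, and in neutrophil-marker barcodes (6871 and 9112) they were 1.98% and 3.46%. The Ccr2 shares of members lay above this background in both libraries, and the intervals of the 2 genotypes overlapped. At 4000 UMIs, with 4 WT and 6 cKO cells left out, the shares were 77.1% (59.9 to 89.6) and 70.0% (45.7 to 88.1). C1qa was found in 66.7% of WT members and in 12 of 24 cKO members at 2000 UMIs, against 8.91% and 5.19% of neutrophil-marker barcodes. Those barcodes were limited to a C1q sum below 10 per 10000, so their C1qa shares are no measure of background.

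Marker genes set 5 members apart, and the rule for this was chosen after their values were seen. Some met it by the dendritic genes Flt3 and Zbtb46, and so fit the dendritic part of the label. The others met it by the B and plasma cell list or the osteoclast list. Values without the 5 therefore also leave out the most dendritic-like members. WT cells 7 and 29 (numbers only name cells) had 6 and 2 UMIs of Flt3, 3 and 4 of Zbtb46 and 12 and 7 of Napsa, and a C1q sum below 1 per 10000; cell 7 also held 176 of the 190 WT UMIs of Ifitm1. WT cell 33 held 734 UMIs of the immunoglobulin light chain Igkc and 568 of Ighm among 2737, and it entered the class on 10 Cd74 UMIs without H2-Aa, H2-Ab1 or H2-Eb1. cKO cells 8 and 15 held 360 and 194 UMIs of the osteoclast phosphatase Acp5 and 40 and 64 of the bone protease Ctsk, with 10.6% and 11.4% mitochondrial UMIs. Their osteoclast lists summed to 185 and 219 per 10000, and the next member stood at 11.1. Without the 5, 36 WT and 24 cKO members were left, and values are given with and without the 5 where leaving them out changed them most.

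Among all 65 members, many cells carried both C1q and Ccr2. C1qa, C1qb and C1qc together reached 10 per 10000 in 28 of 39 WT members (71.8%, 55.1 to 85.0) and 17 of 26 cKO members (65.4%, 44.3 to 82.8). Of these C1q-rich cells, 21 in WT and 8 in cKO also had a Ccr2 UMI. The 9 cKO cells with C1q and no Ccr2 UMI had a median depth of only 3664 UMIs, against 10278.5 for the 8 with both. The part of depth in this was not tested. Below 10 per 10000 of C1q, 8 WT and 6 cKO members had Ccr2, and 3 of each had neither. All 5 cells set apart were C1q-poor: without them 6 WT and 6 cKO cells below 10 had Ccr2, 2 and 1 had neither, and C1q-rich cells made up 77.8% of 36 WT members (60.8 to 89.9) and 70.8% of 24 cKO members (48.9 to 87.4). The cut was not a natural gap: 3 WT and 2 cKO cells lay between 5 and 10, and 2 and 1 between 10 and 15.

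**Figure D3:**
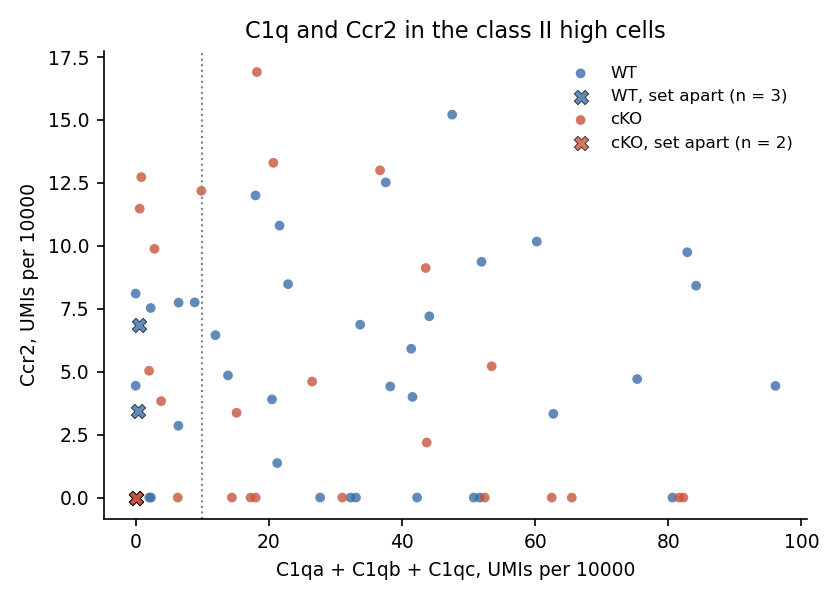
Each member cell by C1qa, C1qb and C1qc together (x) and Ccr2 (y), both in UMIs per 10000 UMIs of the cell. The dotted line marks C1q at 10 and crosses mark the 5 cells set apart, of which 3 lie on top of each other at 0; 21 WT and 8 cKO cells right of the line carry Ccr2.

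The C1q-poor members (8 WT and 7 cKO without the 5) and the C1q-rich members (28 and 17) differed in further genes, listed here as a description of cells split by a measured level. Of 5357 genes, 23 were at least 2-fold higher in C1q-poor cells of both libraries with counting intervals above 1 (0.429%), and 49 were at least 2-fold lower with intervals below 1 (0.915%). The calcium-binding protein S100a4 stood at 2422 CPM in C1q-poor against 401 CPM in C1q-rich WT cells (6.04-fold, 4.81 to 7.64), and at 2299 against 895 CPM in cKO (2.57-fold, 2.04 to 3.24). Cd34, best known on progenitor cells, stood at 188 against 3.55 CPM in WT and 180 against 43.6 CPM in cKO. It had UMIs in only 5 WT and 7 cKO cells. The interleukin-7 receptor Il7r stood at 146 against 14.2 CPM and 180 against 29.1 CPM, and was seen in 13 of all 65 members. Ly6a, Alcam, Itgb7 and the elastase Mmp12 were also among the 23.

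Apoe and Mertk were among the 49 genes higher in C1q-rich cells. Apoe, which carries lipid out of macrophages, stood at 1535 CPM in C1q-poor against 5763 CPM in C1q-rich WT cells and at 733 against 3630 CPM in cKO. Mertk, a receptor for dying cells, stood at 73.1 against 337 CPM and 11.3 against 204 CPM. Ccr2 did not follow this split in WT, with 564 CPM in C1q-poor and 546 CPM in C1q-rich cells (ratio 1.03), and stood at 868 against 575 CPM in cKO (1.51, 1.09 to 2.09). C1q-poor cells were deeper, with medians over all members of 13278 against 10553.5 UMIs in WT and 16555 against 7668 in cKO. Graph clustering of the 65 cells gave 2 clusters of 41 and 24 cells; genes of the cells set apart (Igkc, Ctsk) were among the leading genes of both clusters, and neither was named.

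Class II high cells were next set beside class II low macrophage-marker cells, the barcodes with C1q of at least 10 and class II below 10 per 10000. There were 2604 in WT (31.9% of kept barcodes, median 9867.5 UMIs) and 2362 in cKO (42.9%, 7768.5 UMIs). A gene counted as different only when both libraries gave a 2-fold ratio the same way. At 50 CPM or more, 83 of 4654 genes were higher in class II high cells (1.78%) and 75 lower (1.61%), so most genes did not pass this limit. The macrophage receptor Adgre1 stood at 411 CPM in members and 459 CPM in the comparison cells in WT, and at 458 and 460 CPM in cKO.

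Among 13 chemokine receptor and adhesion genes at 10 CPM or more, Ccr2, Itgax and Itgb7 were higher in class II high cells and none was lower; over all 9744 genes at this level 2.14% were higher and 2.43% lower. Of 17 class II loading genes, H2-DMa, H2-DMb1, Ciita and Ifi30 were higher and the proteases Ctsb and Ctsd lower, and Ifi30 did not pass without the 5 cells. The loading list as a whole took a smaller share of UMIs in members, 0.792% in WT and 0.897% in cKO, than in class II low cells, 1.90% and 1.91%. Ccr2 stood at 541 against 47.6 CPM in WT (11.4-fold, 9.86 to 13.1) and 563 against 53.3 CPM in cKO (10.6-fold, 8.87 to 12.5). The gut-homing integrin Itgb7 stood at 93.3 against 1.08 CPM in WT and 54.1 against 2.25 CPM in cKO, but in only 9 and 5 cells. Without the 5 cells set apart the members' level of Itgb7 was 31.8 CPM in WT (12 UMIs) and 22.1 CPM in cKO (5 UMIs). Itgax stood at 58.3 against 3.94 CPM and 46.9 against 3.03 CPM. The class II switch Ciita stood at 63.0 against 0.24 CPM in WT (37.1 without the 5 cells) and 18.0 against 0.32 CPM in cKO, and the DM beta chain H2-DMb1 at 194 against 22.5 CPM and 126 against 21.6 CPM. Ciita, H2-DMb1 and H2-DMa are controlled together with the genes of the selection, so their direction is close to the rule.

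Other genes that were higher had no part in the rule that chose the members. The comparison cells, however, had to reach C1q of 10 per 10000, while C1q-poor members lay below it. S100a4 and Cd34, like Itgb7 above, were higher in C1q-poor than in C1q-rich members. The part of this gate in their ratios was not tested. Cd52, a surface glycoprotein of leukocytes, stood at 796 against 175 CPM in WT and 437 against 148 CPM in cKO. S100a4 stood at 915 against 224 CPM and 1912 against 395 CPM. Cd34 stood at 58.3 against 4.01 CPM and 79.4 against 5.51 CPM, but in only 6 WT and 7 cKO cells. Axl, a receptor for dying cells, stood at 313 against 123 CPM and 227 against 99.8 CPM and was the only 1 of 17 measured macrophage markers that was higher.

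Of 18 lipid-associated and lysosomal genes, 5 were lower in class II high cells and none higher, and of 11 chemokines Ccl2, Ccl4, Ccl7 and Ccl12 were lower and Ccl5 higher. The lysosomal glycoprotein Gpnmb stood at 159 against 1306 CPM in WT and 148 against 1403 CPM in cKO, and the fatty acid carrier Fabp5 at 191 against 1533 CPM and 144 against 1294 CPM. The proteases Ctsb and Ctsd stood at 0.30 and 0.19 of the comparison level in WT and at 0.34 and 0.32 in cKO. Cd5l, a protein secreted by resident macrophages, stood at 2.33 against 147 CPM and 7.22 against 99.1 CPM. The monocyte attractant Ccl2 stood at 28 against 159 CPM and 36.1 against 218 CPM. Of 21 class I presentation genes none passed in either direction.

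**Figure D4:**
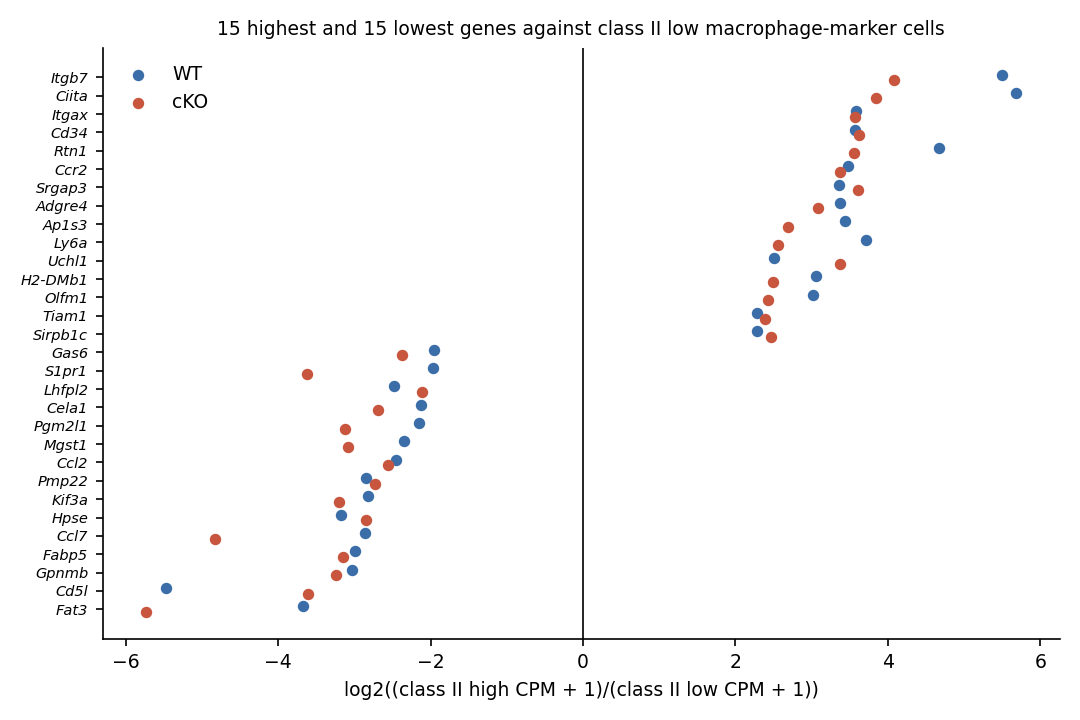
The 15 highest and 15 lowest genes of class II high cells against class II low macrophage-marker cells, as the log2 ratio of CPM with WT and cKO as separate dots. Ccr2, Itgax, Ciita and Itgb7 lie to the right and Gpnmb, Fabp5, Cd5l and Ccl2 to the left in both libraries.

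Class II high cells differed in many more genes from the other comparison cells. Against neutrophil-marker barcodes (322 WT and 356 cKO, C1q below 10 per 10000), 969 of 4938 genes were higher (19.6%) and 498 lower (10.1%). The neutrophil granule gene Lcn2 stood at 4.67 against 7225 CPM in WT and 7.22 against 7569 CPM in cKO, and Cx3cr1 at 532 against 11.6 CPM and 350 against 8.60 CPM. Against B-lineage class II high barcodes, which share the class II signal, 972 of 5129 genes were higher (19.0%) and 479 lower (9.34%). The B-lineage sums held only 123975 UMIs in WT and 243211 in cKO, against 28690122 and 21766106 in class II low cells. These counts used the 2-fold limit without intervals, and the part of counting error in them was not tested.

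Between genotypes, the members were compared on UMIs summed per library, as the ratio of cKO to WT CPM. Of 4393 genes at 50 CPM or more in either library, 653 were at least 1.5-fold higher in cKO (14.9%) and 752 at least 1.5-fold lower (17.1%). Counting intervals excluded 1 for 374 (8.51%) and 435 (9.9%) of these. Without the 5 cells set apart, 617 of 4323 genes were higher (14.3%) and 666 lower (15.4%), and intervals excluded 1 for 281 (6.5%) and 301 (6.96%).

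Single cells made the extremes of this comparison. Ctsk had no UMI in WT members and 108 in cKO members, at least 55.7-fold higher against a floor of 3 WT counts. Acp5 stood at 49.0 and 2118 CPM (43.2-fold, 28 to 70.4) and Mmp9, a matrix protease of osteoclasts, at 16.3 and 657 CPM. Without the 5 cells Acp5 stood at 55.6 and 146 CPM (2.62-fold, 1.47 to 4.77), and Mmp9 had 7 WT UMIs and 1 cKO UMI. On the WT side, Ifitm1 had 190 UMIs against none in cKO, at least 41.0-fold lower in cKO, and Igkc was at a ratio of 0.03 with 734 of its 740 WT UMIs in cell 33. The median log2 ratio of the osteoclast list, 5.25 over 7 genes, was 0.67 over 5 genes without the cells.

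Without the 5 cells, the genes with the highest ratios still rested on few cells. Id1, an inhibitor of differentiation factors, stood at 29.1 CPM in WT and 164 CPM in cKO (5.62, 2.81 to 12.2), in 7 and 13 cells, and its ratio in class II low cells was 2.32. Mmp12 stood at 34.4 and 172 CPM (5.01, 2.62 to 10.2), with 28 of 39 cKO UMIs in 1 cell. The phosphatase Dusp1 stood at 18.5 and 84.0 CPM (4.53, 1.82 to 12.8), with 11 of its cKO UMIs in 1 cell. Pcdh7 had 3 and 35 UMIs, 18 of them in 1 cell. At the other end, Bex3 had 19 UMIs spread over 11 WT cells and none in cKO.

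Gene lists were described by the members at 10 CPM or more in either library. Over all 9404 such genes the median log2 ratio, with 1 CPM added to each level, was -0.04, 47.9% were higher in cKO and 52.1% lower, and intervals lay above 1 for 6.22% and below 1 for 7.99%. Over 9296 genes without the 5 cells the median was -0.06, with 47% higher and 53% lower and intervals above 1 for 4.91% and below 1 for 5.57%. In class II low macrophage-marker cells the median was -0.03, with intervals above 1 for 22.5% and below 1 for 30.5%, since those sums were far deeper. These are the values against which each list below stands.

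The class II genes of the selection were all lower in cKO members. H2-Aa stood at 1505 CPM in WT and 945 CPM in cKO (0.63, 0.54 to 0.73), H2-Ab1 at 1159.6 and 671 CPM (0.58, 0.49 to 0.69), and Cd74 at 3672 and 2966 CPM (0.81, 0.74 to 0.88). H2-Eb1 stood at 971 and 729 CPM (0.75, 0.63 to 0.89). The ratios without the 5 cells were 0.72 for H2-Aa, 0.59 for H2-Ab1, 0.73 for Cd74 and 0.84 for H2-Eb1, whose interval then reached 1 (0.70 to 1.01). Only cells above a fixed class II level were counted, so these ratios describe how far above it the cells lay.

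Of the other genes of class II loading, 8 of 17 were higher in cKO and 9 lower, with a median of -0.03. With the 5 cells left out, 9 of 16 were higher and the median was 0.11. The peptide exchanger gene H2-DMa stood at 217 and 83.0 CPM (0.38, 0.23 to 0.61), in 28 WT and 13 cKO cells, and at 0.50 (0.29 to 0.83) without the 5. H2-DMb1 stood at 194 and 126 CPM (0.65, 0.43 to 0.98), but at 0.78 (0.48 to 1.23) without them. Ciita had 27 and 5 UMIs (0.29, 0.09 to 0.75) and, without them, a ratio of 0.48 with an interval of 0.11 to 1.52. Of these 3 genes, H2-DMa had an interval below 1 both with and without the 5 cells.

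The proteases that cut Cd74 and antigen differed in direction. Ctss, the main protease for Cd74 in such cells, stood at 1230 and 1328 CPM (1.08, 0.94 to 1.24), and at 1323.5 and 1569 CPM without the 5 cells. Cathepsin L (Ctsl) stood at 138 and 422 CPM (3.07, 2.22 to 4.27), and at 3.31 (2.39 to 4.62) without the 5 cells. Of its 117 cKO UMIs, 47 lay in 1 cell that is not among the 5. Per cell, Ctsl ran from 0 through a median of 0.90 to 9.98 per 10000 in WT and from 0 through 2.57 to 32.4 in cKO. The Ctsl ranges overlapped, and in class II low cells the ratio was 1.44. Ctsh stood at 429 and 256 CPM (0.60, 0.45 to 0.79). The thiol reductase Ifi30, which opens disulphide bonds of antigens, had a ratio of 0.98 with all members and of 0.37 (0.21 to 0.64) without the 5.

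Class I presentation, the route to CD8+ T cells, had 7 of 21 genes higher and 14 lower, with a median of -0.29 with and without the 5 cells (-0.24 without them when genes at 0 were set to the floor) and of 0.04 in class II low cells. The main chains were level: H2-K1 stood at 672 and 765 CPM (1.14, 0.95 to 1.36) and H2-D1 at 527 and 530.4 CPM (1.01, 0.81 to 1.24). B2m, the shared light chain, stood at 1666 and 1916 CPM (1.15, 1.03 to 1.29). The immunoproteasome subunits lay lower, Psmb8 at 208 and 108 CPM (0.52, 0.33 to 0.80) and Psmb9 at 93.3 and 25.3 CPM (0.27, 0.10 to 0.61). Psmb9 was at 0.36 (0.11 to 0.98) when the 5 cells were left out, and the interval of Psmb8 then reached 1 (0.69, 0.42 to 1.10).

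Among 11 co-stimulation and checkpoint genes, 6 were higher in cKO and 5 lower, with a median of 0.00 (0.05 without the 5). Cd83, which protects surface class II and Cd86 from degradation, stood at 60.7 and 7.22 CPM (0.12, 0.01 to 0.48), with UMIs in 15 WT cells and 2 cKO cells. Cd86, a ligand that activates T cells, stood at 105 and 46.9 CPM (0.45, 0.22 to 0.84), in 20 and 7 cells. Both intervals stayed below 1 without the 5 cells, at 0.13 (0.01 to 0.51) and 0.50 (0.25 to 0.96). In class II low cells the ratios were 0.81 and 0.61. Havcr2, an inhibitory receptor, had a ratio of 2.16 (0.89 to 5.45), and of 3.34 (1.26 to 9.78) without the 5.

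Macrophage markers were lower in cKO members for 12 of 15 genes, with 8 intervals below 1, a median of -0.40, and -0.29 without the 5 cells. In class II low cells 15 of 17 were lower, with a median of -0.22. When each cell had the same weight the median of the members was -0.03, near that of all genes in the sum. Apoe stood at 4160 and 2302 CPM (0.55, 0.50 to 0.61), and per cell it ran from 1.29 through 39.0 to 204 per 10000 in WT and from 0 through 17.7 to 148 in cKO. C1qb stood at 1176 and 552 CPM (0.47, 0.39 to 0.56), C1qa at 891 and 675 CPM (0.76, 0.63 to 0.90). Mertk stood at 238 and 105 CPM (0.44, 0.28 to 0.67). Adgre1 was level, at 411 and 458 CPM (1.12, 0.88 to 1.41).

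The markers of classical monocytes showed no common shift, with 4 of 11 higher and 7 lower, a median of -0.09, and 0.13 without the 5. Ccr2 stood at 541 and 563 CPM (1.04, 0.84 to 1.28), and at 1.25 (1.01 to 1.55) without the 5. Per cell it ran from 0 through 4.71 to 15.2 per 10000 in WT and from 0 through 2.78 to 16.9 in cKO. Ccr2 UMIs were seen in 29 of 39 WT and 14 of 26 cKO cells, and the interval of the summed ratio spanned 1 with all members but not without the 5. Ms4a6c, a monocyte membrane gene, stood at 443 and 184 CPM (0.42, 0.30 to 0.57), and at 0.58 (0.41 to 0.80) without the 5. The patrolling-monocyte receptor Cx3cr1 stood at 532 and 350.0 CPM (0.66, 0.51 to 0.84).

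Of the list of cDC2 and monocyte-derived dendritic genes, 8 of 9 were lower in cKO. The median was -4.12, or -0.90 with genes at 0 set to the floor, and -0.24 at the floor over 5 genes without the 5 cells. The list took 0.078% of UMIs in WT and 0.022% in cKO members, and 0.0238% and 0.0270% without the 5 cells. WT cells 7 and 29 were set apart for Flt3 and Zbtb46, genes of this list, so part of the lower WT share without them follows from that choice. Ifitm1, also on this list, took no part in setting them apart. It had 176 UMIs in cell 7 and 12 in cell 29, of 190 in WT members.

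Regulators of these cells were mostly lower, 13 of 17 with 6 intervals below 1 and a median of -0.57, and 12 of 16 with 3 intervals and a median of -0.28 without the 5. Zeb2, a regulator of monocyte and dendritic cell development, stood at 2147 and 1537 CPM (0.72, 0.64 to 0.80) and at 0.75 (0.67 to 0.85) without the 5. Ikzf1, a zinc finger regulator of blood cells, stood at 336 and 180 CPM (0.54, 0.38 to 0.75). Spi1, the master regulator of myeloid cells, stood at 406 and 429 CPM (1.06, 0.83 to 1.34). Against this direction, Cebpb, a regulator of inflammatory genes, stood at 93.3 and 296 CPM (3.17, 2.15 to 4.75), and at 3.34 (2.26 to 5.01) without the 5. Per cell, Cebpb had medians of 0 and 1.47 per 10000 and reached 5.54 and 8.97, and its ratio in class II low cells was 1.59.

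Growth factor receptors lay near the median of all genes, with 6 of 15 higher and 9 lower and a median of -0.11 (-0.03 without the 5). Csf1r stood at 709 and 953 CPM (1.34, 1.13 to 1.59) but at 1.02 without the 5. Csf2rb, the shared signalling chain for GM-CSF, interleukin 3 and interleukin 5, stood at 119 and 235 CPM (1.97, 1.35 to 2.90) and at 2.36 (1.56 to 3.61) without them. Chemokine receptors and adhesion genes were balanced, 7 higher and 6 lower of 13 with a median of 0.06. The hyaluronan receptor Cd44 stood at 299 and 491 CPM (1.64, 1.28 to 2.11), and at 1.96 (1.51 to 2.56) without the 5. Among 10 chemokines 4 were higher, and Ccl9 stood at 149 and 296 CPM (1.98, 1.41 to 2.79).

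Antioxidant genes were higher in cKO for 12 of 15 members, with 8 intervals above 1, none below and a median of 0.58. In the members without the 5 cells 14 of 15 were higher, with 5 intervals above 1 and a median of 0.40. The same list was higher for 15 of 15 genes in class II low cells, with a smaller median of 0.31. Gpx1, which reduces peroxides with glutathione, stood at 357 and 649 CPM (1.82, 1.46 to 2.27), and at 2.17 (1.67 to 2.82) without the 5. Prdx1, a peroxiredoxin, stood at 709 and 1046 CPM (1.48, 1.25 to 1.74). Catalase (Cat) stood at 72.3 and 166 CPM (2.29, 1.42 to 3.74) but at a ratio of 0.76 when the class II limit was raised to 60 per 10000.

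The iron and haem list held ferritin and haem oxygenase genes, which were higher in cKO. Ferritin heavy chain (Fth1) stood at 10541 and 16312 CPM (1.55, 1.49 to 1.61), and per cell it ran from 4.87 through a median of 108 to 220 per 10000 in WT and from 31.0 through 139 to 656 in cKO. Haem oxygenase (Hmox1) stood at 159 and 382 CPM (2.41, 1.76 to 3.32) and at 2.43 without the 5. In cKO, 1 cell outside the 5 held 38 of the 106 Hmox1 UMIs, and 1 such cell held 951 of the 4521 Fth1 UMIs. In class II low cells the ratios were 1.19 for Fth1 and 1.45 for Hmox1. The whole list of 13 genes had a median of 0.09, with 8 higher and 5 lower.

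Lipid-associated and lysosomal genes were higher in cKO for 15 of 18 members, with 12 intervals above 1 and a median of 0.67. Leaving out the 5 cells, 14 of 18 were higher, 11 intervals lay above 1, and the median was 0.40, while in class II low cells it was 0.05. The secreted phosphoprotein Spp1 stood at 217 and 671 CPM (3.09, 2.40 to 4.01), and at 2.29 (1.73 to 3.04) without the 5. Lipoprotein lipase (Lpl) stood at 336 and 664 CPM (1.98, 1.58 to 2.48) and the acid lipase Lipa at 369 and 613 CPM (1.66, 1.33 to 2.08). The scavenger receptor Cd36 stood at 145 and 364 CPM (2.52, 1.82 to 3.51), with 59 of 101 cKO UMIs in 1 cell. Ctsd stood at 1178 and 1797 CPM (1.52, 1.35 to 1.73), and its ratio in class II low cells was 0.92.

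S100 and actin-bundling genes were higher for 12 of 16 members both with the 5 cells (median 0.28) and without them (0.50), and in class II low cells the median was 0.16. S100a4 stood at 915 and 1912 CPM (2.09, 1.83 to 2.39), and at 1.58 (1.36 to 1.85) without the 5. The intermediate filament gene Vim stood at 786 and 1450.4 CPM (1.84, 1.59 to 2.14). At a class II limit of 60 per 10000, which left 7 cKO cells, the ratios turned to 0.68 for S100a4 and 0.91 for Vim. S100a11 stood the other way, at 597 and 281 CPM (0.47, 0.36 to 0.61), and at 373 and 256 CPM without the 5.

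**Figure D5:**
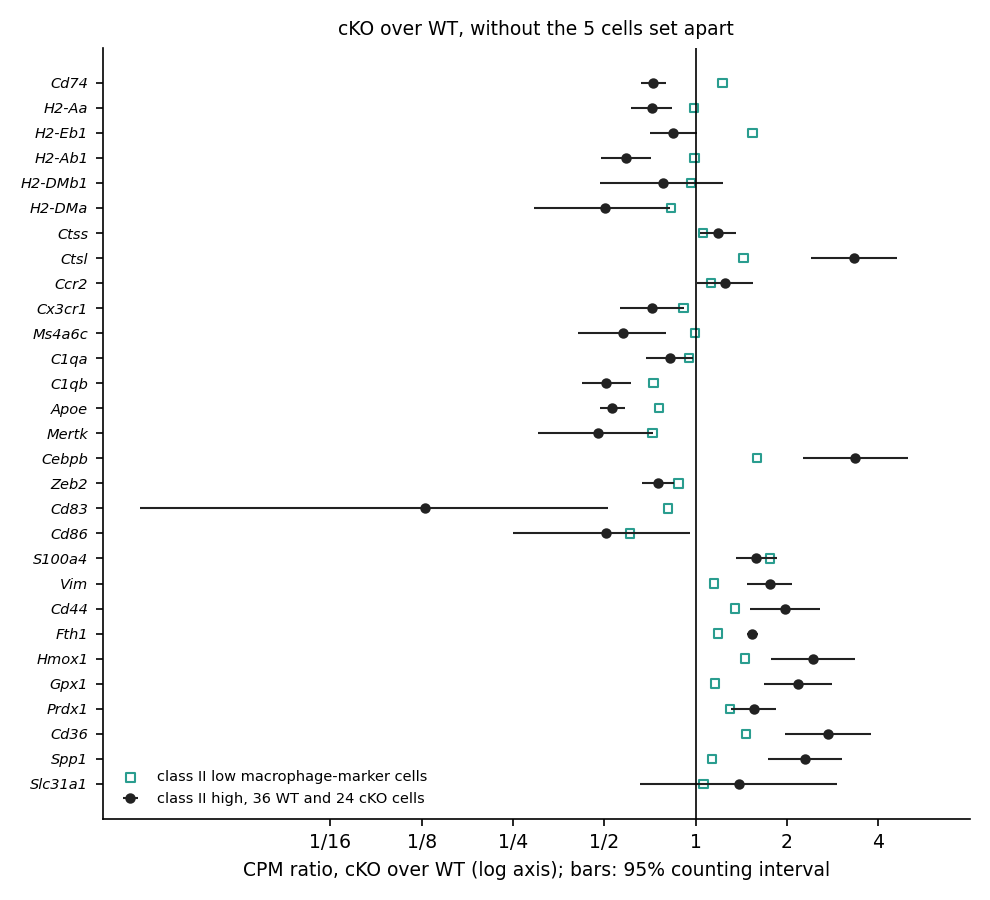
Ratio of cKO to WT CPM (log axis) for 29 genes in class II high cells without the 5 cells set apart, with 95% counting intervals as bars; squares are the same ratio in class II low macrophage-marker cells. Ctsl, Cebpb, Hmox1, Cd36 and Spp1 lie above 1 and Cd83, H2-DMa, Mertk, C1qb and Apoe below it. The ratios of S100a4 and Vim turn below 1 at a class II limit of 60 per 10000.

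Cell cycle genes were lower in cKO for 20 of 24 members, with 9 intervals below 1 and a median of -0.79, but without the 5 cells 14 of 24 were lower and the median was -0.24. Top2a, which untangles replicated DNA, stood at 371 and 119 CPM (0.32, 0.21 to 0.47), and at 0.53 (0.35 to 0.79) without the 5. Mki67, the Ki-67 antigen of dividing cells, had UMIs in 14 WT and 6 cKO cells. At a limit of 60 per 10000 the list's median was 0.08, and among C1q-rich members it was 0.42. The direction of this list therefore depended on which members were counted.

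Interferon response genes were lower for 14 of 20 members with only 2 intervals below 1 (median -0.30, and -0.13 in class II low cells). Ifitm3, a membrane protein against viral entry, stood at 376 and 202 CPM (0.54, 0.39 to 0.73). Immediate early genes were split 8 to 8. Among them Jun stood at 124 and 39.7 CPM (0.32, 0.15 to 0.62) and Atf3 at 170 and 75.8 CPM (0.44, 0.26 to 0.73), both also below 1 without the 5 cells. Inflammatory mediators (median 0.28) included the inflammasome sensor Nlrp3 at 88.7 and 155 CPM (1.75, 1.11 to 2.78). Pattern and Fc receptors (13 of 21 higher, median 0.14) included the endotoxin co-receptor Cd14 at 98.0 and 159 CPM (1.62, 1.04 to 2.53).

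Slc31a1 itself did not stand lower in cKO than in WT members. It had 20 UMIs in WT and 18 in cKO, or 46.7 and 64.9 CPM (1.39, 0.69 to 2.77), in 16 and 11 cells, and the interval spans 1. In class II low cells it stood at 69.5 and 73.8 CPM (1.06, 0.993 to 1.13). Among 15 copper genes 9 were higher in cKO and 6 lower, with a median of 0.47 that was -0.09 without the 5 cells. The superoxide dismutase Sod1 stood at 182 and 299 CPM (1.65, 1.19 to 2.27), and the copper chaperone Cox17 at 149 and 256 CPM (1.72, 1.21 to 2.44). Without the 5, Cox17 stood at 146 and 208 CPM, and 1 of 14 copper genes had an interval above 1 and 1 below it. The copper exporter Atp7a stood at 95.7 and 61.3 CPM (0.64, 0.34 to 1.15). The metallothionein Mt1, which binds surplus copper and zinc, stood at 308 and 303 CPM (0.98, 0.74 to 1.30), and at 315 and 221 CPM without the 5. Which part of Slc31a1 the floxed alleles remove is not stated in the labels, so a UMI count at its 3' end is only a limited check of deletion.

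Markers of other cells were compared between genotypes as shares of member UMIs. B and plasma cell markers took 0.325% in WT and 0.0126% in cKO, and osteoclast markers 0.0154% and 0.384%. Without the 5 cells these shares were 0.0151% and 0.0111% for the B and plasma list and 0.0164% and 0.0230% for the osteoclast list. The stromal sum had medians of 8.86 and 7.35 per 10000 in WT and cKO members, and the 12 stromal markers took 0.102% and 0.087% of UMIs, against 0.155% and 0.135% in class II low cells, 0.0934% and 0.0524% in neutrophil-marker cells and 0.109% and 0.0567% in B-lineage cells. The highest neutrophil sum in any member was 12.4 per 10000. Lists that shifted in both kinds of cells, such as the antioxidant genes and the macrophage markers, cannot be told apart from a shift between the 2 libraries as a whole. The part of mouse, culture and library in any of these ratios was not tested.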

How the data were processed

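Single-cell RNA-seq of adherent marrow was analysed in 1 WT and 1 cKO library. The deposited values were raw UMI counts for each gene in each barcode, and their headers name Cell Ranger 7.1.0 as the software. The submitters' processing notes list mm10 (GRCm38) and Seurat. The sources used here do not state how intronic reads were treated.

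Members and gene lists were chosen with earlier results of these data known. UMIs were summed per library and group of cells, scaled to CPM, and compared as ratios with exact conditional binomial 95% intervals; shares have exact Clopper-Pearson intervals. UMIs of 1 cell are not independent cells, and no p-value was computed. Mitochondrial, ribosomal protein, haemoglobin and predicted genes and the genes of the rule were left out of the counts between genotypes. Genes were named by a rule: the 15 highest and lowest ratios, the selection genes, Slc31a1, and up to 4 of each list by ratio and 4 by level; Id1 and Bex3 come from the same rule without the 5 cells set apart, and Alcam, Atp7a, Ctsh, Ifi30, Lipa, Lpl, Psmb8 and Top2a, like the genes of the split by C1q, were chosen after their values were seen. Doublets were kept; Scrublet's own threshold marked only 2 barcodes in each library, so the highest scores were removed as an alternative. Clusters used scanpy 1.11.5 with leidenalg 0.10.2 at resolution 0.6. Gene positions came from GENCODE M21 and promoters from RefSeq; H2-Ab1 and Ciita had no entry. The ratio script was tested on simulated data. The gate for neutrophil-marker cells was given a C1q limit that the planned gate lacked. Python 3.11.15, numpy 2.4.6 and scipy 1.17.1 were used, with edgeR 4.0.16 for TMM factors only.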

Additional observations from a re-analysis of the deposited data

How the results depend on the processing

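No paired analysis was possible because there was 1 library per genotype. Ratios use no added count, so the planned version without it is the same, and leaving out barcodes shared by the libraries removed no member. Genes at 0 in WT and lists below 10 CPM (7 results) have no value, nor have 26 single alternatives. Of the values computed under alternatives for shares, counts and list medians, 195 stayed close to the value reported and 24 moved, and for single genes and smaller lists 1742 stayed close, 168 moved and 30 changed direction. The 5-cell and C1q-rich alternatives were chosen after seeing the data. The cause of each change was not tested unless fewer cells or genes entered.

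At a class II limit of 15 per 10000 (68 WT and 58 cKO cells) the shares were 0.832% and 1.05%, 346 genes were higher and 468 lower, the osteoclast median was 1.88, and Kit had a ratio of 1.02. At 60 (19 and 7 cells) the shares were 0.233% and 0.127%, 1276 genes were higher, the osteoclast median was 2.34 and the cell cycle median 0.078. There the ratios were 0 for Atp6v0d2 and Dcstamp, 1.07 for Igkc, 1.13 for Lair1, 1.15 for Selplg, 0.76 for Cat, 0.68 for S100a4 and 0.91 for Vim. With the stricter cell filter the osteoclast median was 0.83 and the B and plasma cell median 0.47, with ratios of 0 for Mt3, Kbtbd11 and Dcstamp, 0.32 for Mmp9 and 1.89 for Igkc. Without the 5 cells the medians were 0.67 and 0.12, with ratios of 0 for Mt3, Kbtbd11 and Dcstamp, 0.24 for Mmp9 and 1.95 for Igkc. In C1q-rich members alone the medians were 0.42 (osteoclast), 0.36 (B and plasma cell), 0.33 (myeloid progenitor) and 0.42 (cell cycle), with ratios of 0.34 for Mmp9, 0 for Kbtbd11 and Slc6a8 and 1.37 for Igkc, and 54 genes were higher than in class II low cells. With equal weight per cell the osteoclast median was 3.67 and that of macrophage markers -0.033. At 20 CPM or more 1317 genes were higher and 1607 lower, at 100 CPM or more 313 and 332, and with lists at 50 CPM or more the myeloid progenitor median was 0.44. At clustering resolution 1.0 the cluster richest in macrophage markers held 38.5% of WT members. Thinned to 4000 UMIs the share with Ccr2 was 70.0% in cKO, that with Adgre1 74.3% in WT and 70.0% in cKO, and that with Cx3cr1 80.0% in WT. The floor used for a gene without UMIs was 3 counts, or 7.0 CPM in WT and 10.8 CPM in cKO members.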
